A study of Mus musculus with 6 samples.

Results

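The interferon-stimulated antiviral genes were examined in tumor-bearing colons of mice treated with RG@M-γ-CD or PBS, where all 45 of them had a lower mean in RG@M-γ-CD and none passed an adjusted test. They were the gene probes whose name in the scanner output is 1 of 45 symbols, read as 27 antiviral effectors, 10 guanylate-binding and immunity-related GTPases and 8 regulators and sensors. All 45 genes were on the one-color Agilent array, with 80 of its 56605 gene probes, among 37325 gene names in all. RG@M-γ-CD is regorafenib, an inhibitor of several receptor tyrosine kinases, carried by a mannose-modified γ-cyclodextrin.

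Male C57BL/6 mice, bought at 6 to 8 weeks of age, received the carcinogen AOM (10 μg/g) and drank 2% DSS, an agent that causes colitis, so that both groups carried colitis-associated tumors. By mouth, 3 of them received RG@M-γ-CD (30 μg/g of the complex, with 10 μg/g regorafenib) and 3 received PBS. Treatment lasted 21 days, the colons were taken after a further 14 days, and each mouse gave 1 array. The tissue was not sorted, so fewer cells of a type and less RNA per cell cannot be told apart in any value below.

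Interferons are cytokines that cells release on sensing viral or bacterial nucleic acids. Type I and type III interferons signal through JAK kinases to a complex that contains IRF9 and binds the interferon-stimulated response element (ISRE) of target genes. Interferon-γ, made by T and NK cells, acts through the gamma-activated site (GAS) and strongly induces the GTPases. In the colon, microbes keep a low level of these genes switched on in epithelium and immune cells.

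The promoters of the genes that carry the results below are shown first, because they hold the DNA elements that define the family. RefSeq promoter windows (build GRCm38.p6, 250 bases before to 50 after each transcription start) were found for 33 of the 45 genes, in 41 windows. The ISRE core was searched as GAAANNGAAA on both strands and the GAS as TTCNNNGAA, which reads the same on both. An ISRE match stood in 19 of the 33 genes (57.6%), against 3.99% of the 27025 genes with a window of this length. A GAS match stood in 13 of the 33 (39.4%), against 9.55% of all genes. A match describes these letters in this window and is not a binding site shown by these data. The ISRE match was present in 7 of 7 GTPases, 10 of 20 effectors and 2 of 6 regulators and sensors, and the GAS match in 4, 7 and 2 of them.

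Below are the last 150 bases before the start, read toward the gene, for several effectors and GTPases described in the results, for the common readouts Isg15 and Gbp2, and for Irf1 as a GAS example. The capitals mark the matches, which run as TTTC repeats where the ISRE lies on the other strand; the first capitals of Ifit3 end a match that begins before the stretch shown. Igtp and Irgm2, neighbors on chromosome 11, carry a GAS and an ISRE match side by side in almost the same letters. Irf1 holds a GAS match and no ISRE match, and Isg15 holds 3 overlapping ISRE matches.
Ifit1, chr19:34640739-34640888, plus strand: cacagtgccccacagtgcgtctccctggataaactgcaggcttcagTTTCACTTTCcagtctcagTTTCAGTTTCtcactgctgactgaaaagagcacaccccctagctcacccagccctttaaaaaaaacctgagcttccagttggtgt
Ifit3, chr19:34583379-34583528, plus strand: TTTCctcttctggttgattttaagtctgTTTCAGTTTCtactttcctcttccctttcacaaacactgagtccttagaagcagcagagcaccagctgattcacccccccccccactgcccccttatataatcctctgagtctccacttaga
Oas3, chr5:120777660-120777809, minus strand: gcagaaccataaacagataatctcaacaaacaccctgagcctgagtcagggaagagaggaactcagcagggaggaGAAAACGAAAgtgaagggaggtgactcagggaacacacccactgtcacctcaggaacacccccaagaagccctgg
Isg15, chr4:156200819-156200968, minus strand: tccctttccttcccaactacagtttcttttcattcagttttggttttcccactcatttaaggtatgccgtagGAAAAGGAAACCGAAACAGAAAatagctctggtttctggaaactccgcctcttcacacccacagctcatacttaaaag
Irgm1, chr11:48871421-48871570, minus strand: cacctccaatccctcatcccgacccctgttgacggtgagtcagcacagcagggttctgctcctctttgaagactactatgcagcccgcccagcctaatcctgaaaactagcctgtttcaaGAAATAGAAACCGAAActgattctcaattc
Igtp, chr11:58199406-58199555, plus strand: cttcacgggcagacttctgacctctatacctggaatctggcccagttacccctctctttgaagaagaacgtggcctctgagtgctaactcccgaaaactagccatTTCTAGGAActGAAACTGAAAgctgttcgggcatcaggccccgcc
Irgm2, chr11:58214827-58214976, plus strand: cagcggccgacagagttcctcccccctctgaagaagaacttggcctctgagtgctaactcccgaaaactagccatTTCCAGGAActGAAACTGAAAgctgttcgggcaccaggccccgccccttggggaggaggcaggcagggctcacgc
Gbp2, chr3:142620513-142620662, plus strand: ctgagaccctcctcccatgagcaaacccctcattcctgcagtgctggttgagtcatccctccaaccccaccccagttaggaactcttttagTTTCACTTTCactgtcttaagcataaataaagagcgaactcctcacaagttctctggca
Irf1, chr11:53769864-53770013, plus strand: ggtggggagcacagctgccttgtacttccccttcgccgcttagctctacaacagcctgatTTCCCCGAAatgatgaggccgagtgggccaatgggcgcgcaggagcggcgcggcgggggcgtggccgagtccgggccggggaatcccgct

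**Figure D1:**
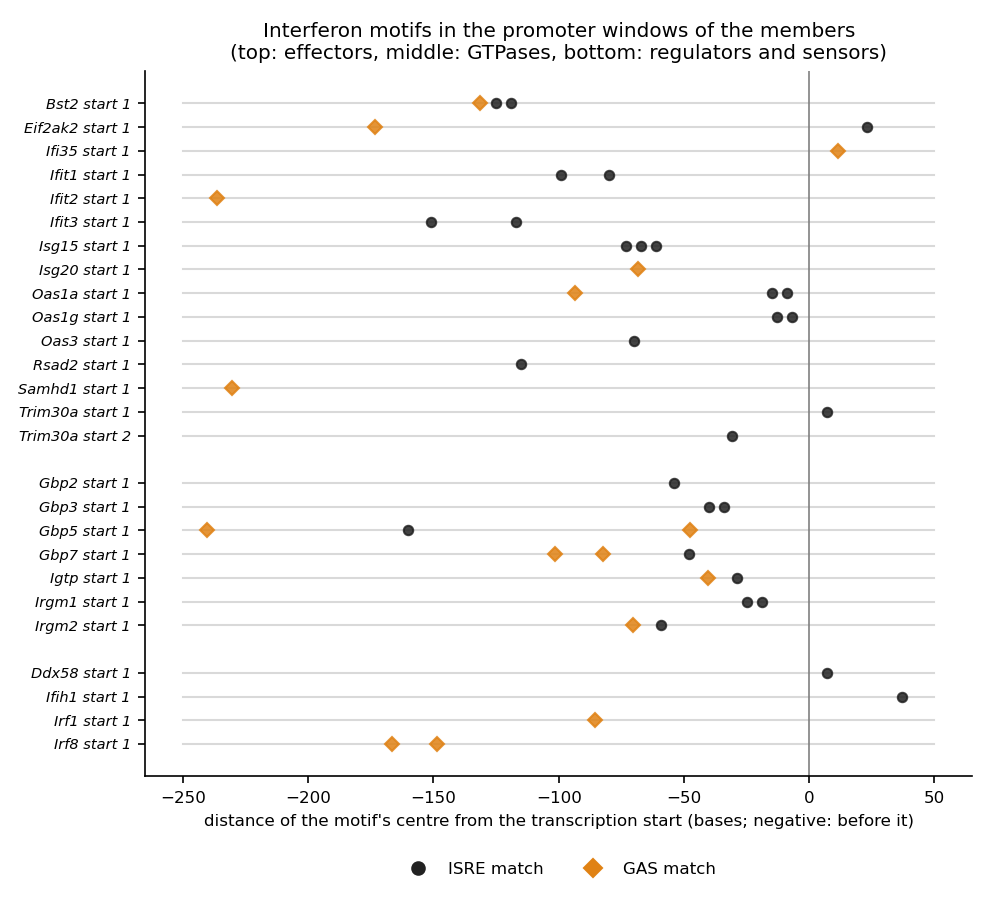
Matches to the ISRE (circles) and GAS (diamonds) in the promoter windows of the members, by distance in bases from the transcription start, with effectors at the top, GTPases in the middle and regulators at the bottom. Genes with more than 1 start have a line for each, and windows without a match are not drawn; all 7 GTPases shown have an ISRE match, against 3.99% of all genes.

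Levels are log2 intensities after subtracting each array's 75th percentile over gene probes, so that 0 marks that percentile, and a log2 change is the RG@M-γ-CD mean minus the PBS mean. Each gene stands on its brightest probe, out of the probes that exceeded background clearly on every array of 1 group or both. Levels were not compared between genes, except that the summed levels of the marker lists add intensities over genes. Per array, 49.6% to 55.2% of gene probes stood well above background, 0 gene spots were saturated, and all 10 colon epithelium markers were well above background on all 6 arrays. Of the 45 members, 44 were well above background on all 6 arrays, and Herc6, a ubiquitin ligase that attaches ISG15, on 3 RG@M-γ-CD and 2 PBS arrays. The arrays came from 1 slide and 1 scan, with RG@M-γ-CD replicates 1 to 3 and PBS replicate 1 in row 1 of the slide and PBS replicates 2 and 3 in row 2. The sample labels put arrays 5, 6 and 7 in RG@M-γ-CD and arrays 8, 10 and 11 in PBS. A published heat map sets array 5 (RG@M-γ-CD replicate 1) with arrays 10 and 11, and array 8 (PBS replicate 1) with arrays 6 and 7, with neither side named as treated. Values are therefore given by the labels first and by that grouping afterwards. Precision is limited by the number of arrays: with 3 in each group, 0.1 is the smallest two-sided p of an exact permutation test.

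By the labels, all 45 members had a log2 change below 0, a sign that 52.8% of the 19087 genes tested shared. The median change was −0.42 over the members, against −0.012 over all genes. In 17 members the change was below −0.5, against 5.32% of all genes. In 5 members (Ifit1, Rtp4, Ifit3, Parp9 and Irf9) every RG@M-γ-CD array lay below every PBS array, as in 2.19% of all genes. At an unadjusted p below 0.05 in limma, 4 members were lower (Ifit1, Rtp4, Ifit3 and Irgm1), against 1.33% of all genes, and the methods' t-test also counted 4, against 0.98%. After Benjamini-Hochberg adjustment over all genes, limma left 0 members and 0% of all genes past 0.05, and the methods' t-test left 0 members as well; the lowest adjusted p of a member rounded to 1. The single arrays decided how many members passed the unadjusted threshold in limma: without RG@M-γ-CD replicate 2 they were 9 (1.51% of all genes) and without PBS replicate 2 they were 13 (1.31%), while 1 was left without RG@M-γ-CD replicate 3 (0.668%), PBS replicate 1 (1.60%) or PBS replicate 3 (1.22%). The count without overlap was 21 without RG@M-γ-CD replicate 2 (5.81% of all genes), 17 without PBS replicate 2 (4.67%), 9 without PBS replicate 1 (10.2%) and 8 without RG@M-γ-CD replicate 1 (12.2%), and with quantile normalization it was 1, against 2.33% of all genes. Of the 80 member probes 64 passed the filter on dim probes and were all lower. In the 15 members with more than 1 such probe the probes had the same sign. The share of lower probes among all passing probes was not counted, and probes of the same gene do not give separate evidence. Among the dim probes left out, a probe each of Iigp1 (0.65), Samhd1 (0.22), Mx2 (0.076) and Xaf1 (0.0083) had a change above 0, and the rest were below 0.

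**Figure D2:**
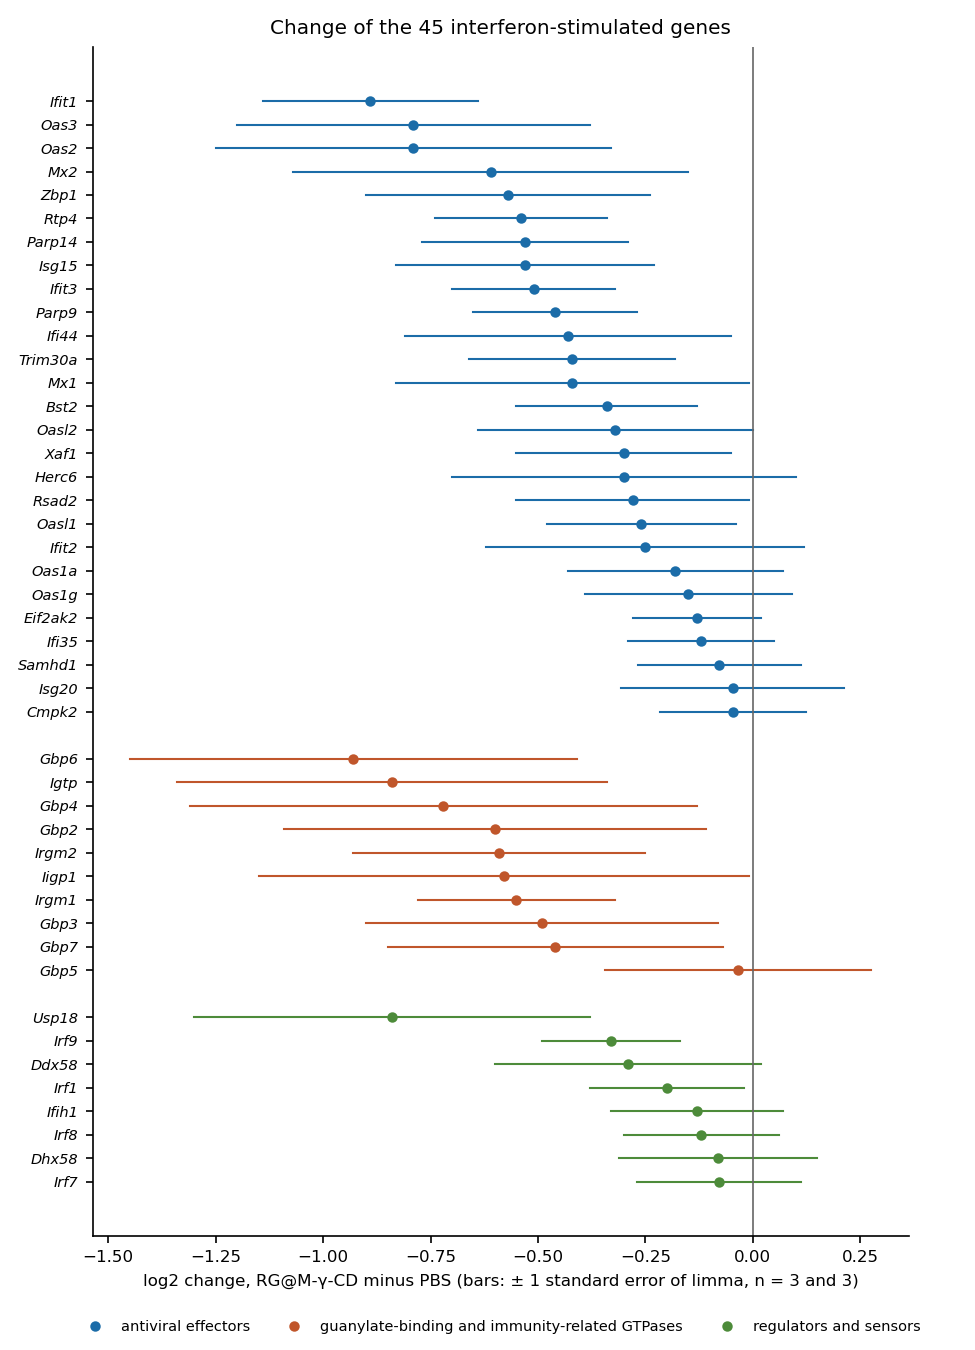
Log2 change (RG@M-γ-CD minus PBS) of the 45 members, with bars of 1 standard error from limma over 3 arrays in each group, sorted within effectors, GTPases and regulators. All points lie left of 0, from −0.93 (Gbp6) to −0.034 (Gbp5), and the bars of the GTPases are the widest of the 3 groups, with a median standard error of 0.45.

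Among the 27 antiviral effectors the median log2 change was −0.34, from −0.89 for Ifit1 to −0.046 for Cmpk2, and 3 passed an unadjusted p of 0.05 in limma. Ifit1, which binds viral RNA that lacks the host cap methylation and blocks its translation, stood at −0.96, −0.69 and −0.67 on the RG@M-γ-CD arrays and at −0.03, −0.24 and 0.62 on the PBS arrays. All 3 RG@M-γ-CD arrays lay below all 3 PBS arrays, with PBS replicate 3 the highest by far. The Ifit1 mean was 1.85-fold lower in RG@M-γ-CD, a log2 change of −0.89 with a standard error of 0.25 (95% interval −1.50 to −0.28, unadjusted p = 0.0114 and adjusted p = 1 from limma). Ifit3, which stabilizes the IFIT1 complex, stood at −0.14, 0.30 and −0.11 on the RG@M-γ-CD arrays and at 0.59, 0.32 and 0.65 on the PBS arrays. RG@M-γ-CD replicate 2 and PBS replicate 2 were nearly level, and the other arrays were well apart. Its change was −0.51 with a standard error of 0.19 (unadjusted p = 0.0364 from limma). Ifit3 has close copies in the mouse genome, and their part in the probe's signal was not tested. The third IFIT member, Ifit2, had a change of −0.25 with a standard error of 0.37.

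Rtp4, a receptor transporter protein induced by type I interferon, stood at 2.26, 2.71 and 2.57 on the RG@M-γ-CD arrays and at 2.98, 2.85 and 3.32 on the PBS arrays. The groups did not overlap, and the change was −0.54 with a standard error of 0.20 (unadjusted p = 0.0349 from limma). Parp9, an ADP-ribosyltransferase family member that works with DTX3L in interferon signaling, stood at 2.13, 2.0 and 1.83 on the RG@M-γ-CD arrays and at 2.61, 2.14 and 2.59 on the PBS arrays. Here too the groups did not overlap, although RG@M-γ-CD replicate 1 and PBS replicate 2 were nearly level, and the change was −0.46 (standard error 0.19). Parp14, another member of that family, stood at 2.30, 2.77 and 2.43 on the RG@M-γ-CD arrays and at 3.40, 2.66 and 3.04 on the PBS arrays. RG@M-γ-CD replicate 2 exceeded PBS replicate 2, so the groups overlapped, and the change was −0.53 (standard error 0.24).

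Active OAS enzymes sense double-stranded RNA and make the messenger that activates RNase L. The 6 OAS and OAS-like members had changes from −0.79 (Oas2 and Oas3) to −0.15 (Oas1g), with Oasl2 at −0.32, Oasl1 at −0.26 and Oas1a at −0.18. Oas3 stood at −3.62, −3.40 and −3.62 on the RG@M-γ-CD arrays and at −2.74, −3.61 and −1.93 on the PBS arrays. The RG@M-γ-CD arrays were close together, and PBS replicate 2 was level with them while the other PBS arrays were higher. The Oas3 change had a standard error of 0.41 and a 95% interval of −1.77 to 0.19. Without PBS replicate 3 it was −0.37, the value nearest to 0 when single arrays were left out. Oas1a and Oas1g are close paralogs, and signal shared between their probes was not tested.

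Isg15, a ubiquitin-like protein that is conjugated to other proteins, stood at 2.83, 3.43 and 2.88 on the RG@M-γ-CD arrays and at 3.26, 3.33 and 4.13 on the PBS arrays. PBS replicate 3 was far above the rest, RG@M-γ-CD replicate 2 exceeded PBS replicates 1 and 2, and the change was −0.53 (standard error 0.30). Zbp1, a sensor of Z-form nucleic acid that triggers cell death, stood at 2.09, 1.39 and 2.11 on the RG@M-γ-CD arrays and at 1.94, 2.39 and 2.96 on the PBS arrays. On its brightest probe Zbp1 was the only effector with its lowest value on RG@M-γ-CD replicate 2, and its change was −0.57 (standard error 0.33). A second Zbp1 probe that passed the filter had a change of −0.79. There RG@M-γ-CD replicate 2, at 0.49, was the highest of the RG@M-γ-CD arrays, with replicates 1 and 3 at −0.05 and −0.20. Cmpk2, a mitochondrial nucleotide kinase and the effector with the change nearest to 0, stood at 0.26, 0.22 and 0.10 on the RG@M-γ-CD arrays and at 0.28, 0.01 and 0.44 on the PBS arrays. The Cmpk2 groups overlapped, with a change of −0.046 (standard error 0.17) and a 95% interval of −0.46 to 0.37.

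The other effectors ran from −0.61 for Mx2 to −0.047 for Isg20, an RNA exonuclease, and each had groups that overlapped. The dynamin-like Mx1 and Mx2, which trap viral nucleocapsids, had changes of −0.42 (standard error 0.41) and −0.61 (standard error 0.46). Bst2, known as tetherin because it holds budding virus at the cell surface, had a change of −0.34 (standard error 0.21). Rsad2, or viperin, which makes a chain-terminating nucleotide, had a change of −0.28 (standard error 0.27). Eif2ak2, the kinase PKR that halts translation on sensing double-stranded RNA, had the narrowest range of all members, 0.30 over the 6 arrays, and a change of −0.13 (standard error 0.15).

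**Figure D3:**
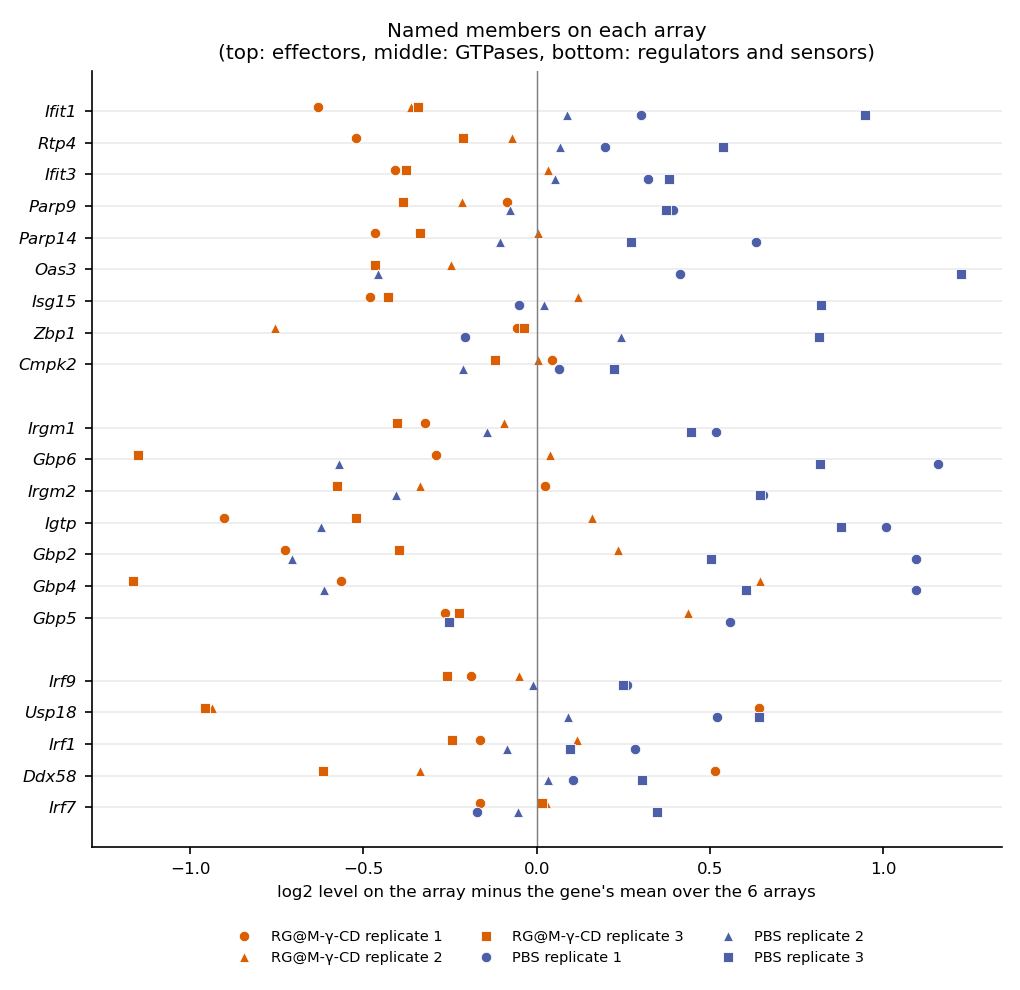
Log2 level of the named members on each array, minus the gene's mean over the 6 arrays, with RG@M-γ-CD arrays in orange and PBS arrays in blue and the replicate given by the symbol. Ifit1, Rtp4, Ifit3, Parp9 and Irf9 have all orange points left of all blue points, and the GTPases have PBS replicate 2 on the left with the RG@M-γ-CD arrays.

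Among the 10 GTPases the median change was −0.59, from −0.93 for Gbp6 to −0.034 for Gbp5, and 1 of them, Irgm1, passed an unadjusted p of 0.05 in limma. The guanylate-binding proteins (Gbp) and the immunity-related GTPases (Irgm1, Irgm2, Igtp and Iigp1) take part in the defense against bacteria or parasites held in vacuoles. Irgm1, which keeps the effector GTPases off the cell's own membranes, stood at 1.77, 2.0 and 1.69 on the RG@M-γ-CD arrays and at 2.61, 1.95 and 2.54 on the PBS arrays. PBS replicate 2 lay just below RG@M-γ-CD replicate 2, so the groups overlapped, and the change was −0.55 with a standard error of 0.23 (unadjusted p = 0.0483 from limma). Leaving out single arrays gave Irgm1 changes of −0.76 to −0.43.

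Gbp6 stood at −1.46, −1.13 and −2.32 on the RG@M-γ-CD arrays and at −0.01, −1.74 and −0.35 on the PBS arrays. PBS replicate 2 lay below RG@M-γ-CD replicates 1 and 2, the range of 2.31 over the 6 arrays was the widest of all members, and the change was −0.93 (standard error 0.52). Igtp, also named Irgm3, stood at 1.87, 2.93 and 2.25 on the RG@M-γ-CD arrays and at 3.78, 2.15 and 3.65 on the PBS arrays. Its change was −0.84 (standard error 0.50), with PBS replicate 2 below RG@M-γ-CD replicates 2 and 3. Irgm2 stood at 3.30, 2.94 and 2.70 on the RG@M-γ-CD arrays and at 3.93, 2.87 and 3.92 on the PBS arrays. Irgm2 also had PBS replicate 2 below RG@M-γ-CD replicates 1 and 2, and the change was −0.59 (standard error 0.34).

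Gbp2, the usual readout of interferon-γ among the GBPs, stood at 1.25, 2.21 and 1.58 on the RG@M-γ-CD arrays and at 3.07, 1.27 and 2.48 on the PBS arrays. PBS replicate 2 was nearly level with the lowest RG@M-γ-CD array, and the change was −0.60 (standard error 0.49). Gbp4 stood at −0.87, 0.34 and −1.47 on the RG@M-γ-CD arrays and at 0.79, −0.92 and 0.30 on the PBS arrays. The Gbp4 groups overlapped widely, with a change of −0.72 (standard error 0.59). Gbp5, a GBP that promotes inflammasome assembly, stood at −1.61, −0.91 and −1.57 on the RG@M-γ-CD arrays and at −0.79, −1.60 and −1.60 on the PBS arrays. On this probe, the brightest of Gbp5, PBS replicate 3 was low as well and the change was −0.034 (standard error 0.31). Without PBS replicate 1 that change turned to 0.24. A second Gbp5 probe that passed the filter had a change of −0.64. There PBS replicate 3, at −1.17, lay above RG@M-γ-CD replicates 1 and 3 (−1.94 and −2.44) and below replicate 2 (−0.93). Averaging the probes of Gbp5 gave a change of −0.34. The other GTPases, Iigp1, Gbp3 and Gbp7, had changes of −0.58, −0.49 and −0.46 with standard errors of 0.39 to 0.57.

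Among the 8 regulators and sensors the median change was −0.16, from −0.84 for Usp18 to −0.079 for Irf7, and none passed an unadjusted p of 0.05 in limma, with Irf9 the lowest at an unadjusted p of 0.0775. Irf9, the DNA-binding part of the complex at the ISRE, stood at 2.94, 3.08 and 2.87 on the RG@M-γ-CD arrays and at 3.39, 3.12 and 3.38 on the PBS arrays. The groups did not overlap, although RG@M-γ-CD replicate 2 and PBS replicate 2 were nearly level, and the change was −0.33 (standard error 0.16). Usp18, which removes ISG15 and dampens the type I receptor, stood at 1.76, 0.18 and 0.16 on the RG@M-γ-CD arrays and at 1.64, 1.21 and 1.76 on the PBS arrays. RG@M-γ-CD replicate 1 was level with the highest PBS array while the other RG@M-γ-CD arrays were far below, and the change was −0.84 (standard error 0.46). Without RG@M-γ-CD replicate 1 the Usp18 change was −1.37.

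Ddx58, the RNA sensor RIG-I, had the same arrays apart: it stood at 2.33, 1.48 and 1.20 on the RG@M-γ-CD arrays and at 1.92, 1.85 and 2.12 on the PBS arrays. RG@M-γ-CD replicate 1 was the highest of the 6, which held for no other member, and the change was −0.29 (standard error 0.31). Irf1, a transcription factor induced by interferon-γ, stood at 4.52, 4.80 and 4.44 on the RG@M-γ-CD arrays and at 4.97, 4.60 and 4.78 on the PBS arrays. The Irf1 groups overlapped, with a change of −0.20 (standard error 0.18). Irf7, the factor that amplifies type I interferon production, stood at 4.70, 4.89 and 4.88 on the RG@M-γ-CD arrays and at 4.69, 4.81 and 5.21 on the PBS arrays. Only PBS replicate 3 stood out, and the Irf7 change was −0.079 (standard error 0.19, 95% interval −0.53 to 0.37). The sensors Ifih1 (MDA5) and Dhx58 (LGP2) had changes of −0.13 and −0.081, and Irf8, a factor of myeloid cells, of −0.12.

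The arrays did not split cleanly by label across the members. PBS replicate 3 was the highest array in 23 of the 45 members, against 13.4% of all genes, and PBS replicate 1 in 18, against 8.60%. The lowest array was RG@M-γ-CD replicate 1 in 21 members, against 18.8% of all genes, and RG@M-γ-CD replicate 3 in 17, against 7.62%. RG@M-γ-CD replicate 2 and PBS replicate 2 were the arrays that lay between. RG@M-γ-CD replicate 2 was below the PBS mean in 25 of the 45 members and PBS replicate 2 above the RG@M-γ-CD mean in 29, against 37 to 44 for the other arrays. The share over all genes was not counted here. The lower RG@M-γ-CD mean of all 45 members raises such counts by itself, so they serve only to compare the arrays.

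The 3 groups of members differed in which arrays were high. Among effectors PBS replicate 3 was highest in 19 of 27, and among GTPases PBS replicate 1 in 10 of 10. As the median deviation from each gene's mean over the 6 arrays, the effectors stood at −0.46, 0.07 and −0.21 on RG@M-γ-CD replicates 1 to 3 and at 0.12, −0.01 and 0.45 on PBS replicates 1 to 3. The GTPases stood at −0.49, 0.27 and −0.55 on the RG@M-γ-CD arrays and at 0.83, −0.52 and 0.56 on the PBS arrays. The regulators and sensors stood at −0.17, −0.01 and −0.22 on the RG@M-γ-CD arrays and at 0.15, 0.01 and 0.31 on the PBS arrays. PBS replicate 2 was thus as low as RG@M-γ-CD replicates 1 and 3 for the GTPases and near the mean for the other groups. Whether the groups of members differ in their response to RG@M-γ-CD was not tested. The spread inside a group was wide for the GTPases, with a median SD of 0.51 over the RG@M-γ-CD and 0.73 over the PBS arrays, against 0.30 and 0.21 for all genes.

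**Figure D4:**
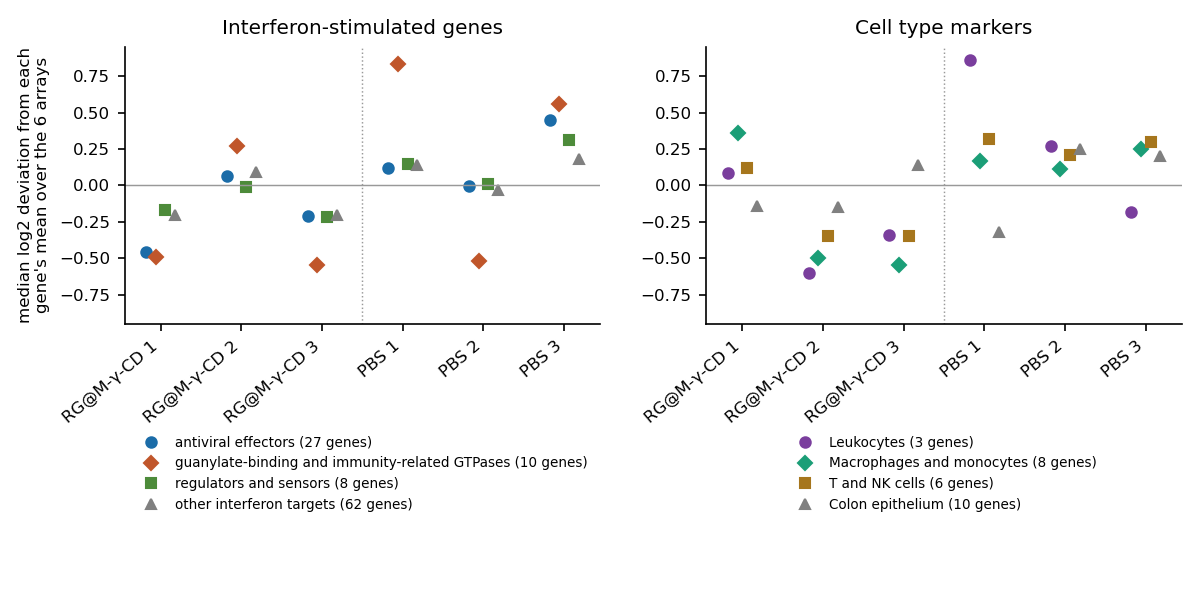
Median log2 deviation from each gene's mean over the 6 arrays, per array, for the effectors, GTPases, regulators and other interferon targets (left) and for cell type markers (right), with each point the median over the number of genes in the legend. The GTPases reach 0.83 on PBS replicate 1 and −0.52 on PBS replicate 2, while macrophage markers stand at 0.36 on RG@M-γ-CD replicate 1, where the effectors stand at −0.46.

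The presence of the promoter motifs was set beside their changes as a description, with no test. The 19 members with an ISRE match had a median change of −0.46 (−0.89 to −0.034), and the 14 with a window but no ISRE match a median of −0.22 (−0.43 to −0.046). The 13 members with a GAS match had a median of −0.18. The low-p effectors Ifit1, Ifit3 and Oas3 and the GTPases printed above are in the ISRE group, as is every GTPase with a window. That group also holds members with small changes, such as Gbp5 (−0.034), Eif2ak2 (−0.13) and Ifih1 (−0.13). Irf7 and Irf9 are in the group without a match in this window. No window was found for Rtp4, Parp9, Parp14, Zbp1, Oas2, Mx1, Mx2, Gbp4, Gbp6, Iigp1, Usp18 and Dhx58, so they are in neither group.

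Of the pathway around the members, the ligands were near or below the detection limit in this tissue. Of 11 interferon genes, 2 were tested. Ifng stood at −4.16, −3.80 and −4.03 on the RG@M-γ-CD arrays and at −3.62, −5.98 and −4.13 on the PBS arrays, well above background on 3 and 2 of them, with a change of 0.58 (standard error 0.59). Ifnb1 was well above background on 1 RG@M-γ-CD and 0 PBS arrays. All 6 receptor genes were tested, with a median change of −0.085, and none passed an unadjusted p of 0.05 in limma. Ifnar1 and Ifnar2, the type I receptor chains, had changes of −0.026 and −0.14, and Ifngr1 and Ifngr2, the interferon-γ receptor chains, of −0.21 and −0.0095.

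Of the 11 JAK-STAT genes, 10 were lower and 1 was higher, against 52.8% of all genes lower, with a median of −0.24. Against 1.33% of all genes, 1 of them was lower at an unadjusted p below 0.05 in limma. This was Socs1, the feedback inhibitor of JAK kinases, at −0.19, −0.50 and −0.45 on the RG@M-γ-CD arrays and at 0.97, −0.11 and 0.48 on the PBS arrays. The Socs1 groups did not overlap, and its change was −0.83 (standard error 0.29, unadjusted p = 0.0265 and adjusted p = 1 from limma). Stat2 had a change of −0.28 (standard error 0.19).

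Of 67 other interferon targets, 62 were tested, 56 were lower and 6 higher, against 52.8% of all genes lower, and the median was −0.24. In limma 2 of them had an unadjusted p below 0.05, both lower, against 1.33% of all genes. In 7 every RG@M-γ-CD array lay below every PBS array, against 2.19% of all genes. Ifi47, a GTPase of the IRG family, had a change of −0.95 (standard error 0.28, unadjusted p = 0.0123), and Slfn2, a Schlafen protein of lymphocytes and myeloid cells, of −0.78 (standard error 0.25, unadjusted p = 0.0186). The chemokines Cxcl9 and Cxcl10, which recruit T cells, had changes of −1.25 (standard error 0.64) and −0.71 (standard error 0.49), and both had PBS replicate 2 among the RG@M-γ-CD values. Of 14 upstream sensing genes 12 were tested, 8 lower and 4 higher, with a median of −0.079.

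Most tested markers of immune cells had a lower mean in RG@M-γ-CD as well, with ranges of the summed levels that overlapped in each list. The median summed level was higher in RG@M-γ-CD for the B and plasma cell markers (36.4 against 30.6 in PBS). It was also higher for the plasmacytoid dendritic cell markers (135 against 128). The 3 leukocyte markers were all lower, with summed levels (relative to the 75th percentile) of 5.88 to 9.92 in RG@M-γ-CD and 7.63 to 16.9 in PBS. The 8 macrophage and monocyte markers were all lower, at 89.5 to 148 against 135 to 190. Of 8 T and NK cell markers, the 6 tested were all lower, at 1.77 to 2.51 against 2.38 to 3.71, and Cd8a was well above background on 0 arrays. Of 6 plasmacytoid dendritic cell markers 5 were tested and lower, at 76.6 to 197 against 104 to 179, with Cox6a2 well above background on 0 arrays. These sums mostly follow the brightest markers of a list and are not a measure of cell number. Behind the 197, of RG@M-γ-CD replicate 2, Klk1 had a log2 level of 7.29, Siglech of 5.03 and Ly6d of 2.15. Behind the macrophage sum of 148, of RG@M-γ-CD replicate 1, Ly6c2 had 6.93 and the next marker, Csf1r, 3.25. Which cells gave the Klk1, Ly6d and Ly6c2 signal was not tested. The 5 neutrophil markers were lower, at 3.89 to 67.4 against 22.7 to 50.8. Of 5 B and plasma cell markers 4 were tested, 3 lower and 1 higher, at 33 to 46.9 against 24.4 to 36.9. Outside the immune cells, the 5 smooth muscle markers were higher, at 73.3 to 608 against 145 to 170, and the summed level of the 10 colon epithelium markers was 711 to 1070 against 758 to 1220. The 4 endothelium markers were higher, at 3.02 to 4.74 against 2.33 to 3.47, and of 5 squamous epithelium markers the 3 tested were lower, at 6.05 to 18.8 against 14.9 to 21.9. Of 5 exocrine pancreas markers 2 were tested. The pancreatic protease Prss2 was well above background on 0 RG@M-γ-CD and 3 PBS arrays. Cela1 was so on 3 and 3, with a change of 0.17 (standard error 0.31). The untested Cpa1 and Pnlip were each well above background on 1 RG@M-γ-CD and 2 PBS arrays, and Amy2a5 on 0 and 2. The part of these cell types in the members' values was not tested. As median deviations from each gene's mean over the 6 arrays, in the order RG@M-γ-CD replicates 1 to 3 and PBS replicates 1 to 3, the leukocyte markers stood at 0.085, −0.60, −0.34, 0.86, 0.27 and −0.18, and the macrophage and monocyte markers at 0.36, −0.50, −0.55, 0.17, 0.11 and 0.25. PBS replicate 1 was high for both the leukocyte markers and the GTPases, PBS replicate 3 for the macrophage markers and the effectors. RG@M-γ-CD replicate 3 was low for all of them. RG@M-γ-CD replicate 1 was high for the macrophage markers and low for the effectors. RG@M-γ-CD replicate 2 was low for both marker lists and high for the GTPases. On PBS replicate 2 the leukocyte markers stood at 0.27 and the GTPases at −0.52, and on PBS replicate 3 at −0.18 and 0.56. In the array order above, the T and NK cell markers stood at 0.12, −0.35, −0.35, 0.32, 0.21 and 0.30.

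With the arrays grouped as in that heat map, as arrays 6, 7 and 8 minus arrays 5, 10 and 11, the common sign of the members was lost. Under this grouping 21 of 45 members were lower, against 63.8% of 19295 genes, and the member median was 0.011, against −0.12 over all genes. The GTPases turned to a median of 0.41, with Gbp2 at 0.62 and Igtp at 0.43, while Irgm2 remained lower at −0.17. The effectors had a median of −0.018, with Ifit1 at −0.27 and Zbp1 at −0.67. Usp18 at −0.92 and Ddx58 at −0.57 were further below 0 than by the labels. Of the pathway genes outside the members, Ifi47 then had a change of 0.038, Cxcl9 of 0.42, Cxcl10 of 0.51, Stat2 of 0.079, Slfn2 of −0.31 and Socs1 of −0.055. Without RG@M-γ-CD replicate 1 and PBS replicate 1, the arrays on which the groupings differ, 38 of 45 members were lower, against 60.8% of all genes, and the median was −0.25. Gbp2 then had a change of 0.016 and Gbp5 of 0.36. With the slide row as a block, which sets the RG@M-γ-CD arrays against PBS replicate 1 alone, 37 members were lower, against 36.5% of all genes, and the member median was −0.40 where the median of all genes was 0.10.

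**Figure D5:**
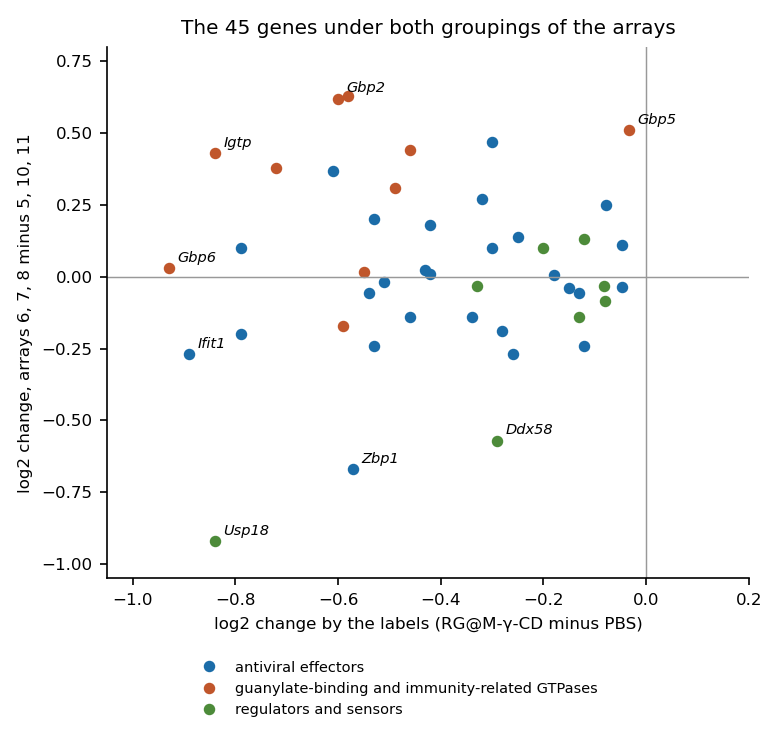
Log2 change of the 45 members by the labels (horizontal axis, RG@M-γ-CD minus PBS) and by the grouping of the heat map (vertical axis, arrays 6, 7 and 8 minus arrays 5, 10 and 11), with each point a gene. The groupings share arrays, so the axes are not independent; all 45 points lie left of 0, while 21 lie below 0 on the vertical axis, and 9 of the 10 GTPases lie above it.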

How the data were processed

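Colon tissue with tumors from 3 RG@M-γ-CD and 3 PBS mice was measured on one-color arrays. The authors deposited scanner output of Agilent Feature Extraction 10.7.1.1, per the labels, which holds each spot's intensity after background correction, without normalization between arrays, and marks for outlier, saturated and well above background spots (deposited as 0 or 1). They also deposited a table of log2 values, whose normalization method is not given in the sources used here; all its columns have nearly the same distribution, and it served as an alternative only.

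Control spots and 790 outlier spots were left out, spots of a probe were averaged, and the 75th percentile of the array was subtracted (R 4.3.3, data.table, version 1.17.8). Of the 56605 gene probes 32994 were named through their accession and 23611 by the scanner output. A gene's value was that of its brightest probe among those clearly over background on every array of 1 group or both, tested with limma 3.58.1 (lmFit and eBayes) and Benjamini-Hochberg adjustment at 0.05. The fit was tested on simulated data. The members and the pathway and marker lists were chosen with earlier results of these data known, so no list was tested. Members described with a value on every array were the effectors (8), GTPases (5) and regulators (4) with the lowest p, the highest change in each group, and Irf7, Isg15 and Gbp2. Alternatives were quantile normalization, normexp (offset 50), no filter on dim probes or one over all 6 arrays, averaging a gene's probes, keeping outlier spots, the replicate block, the authors' table, the methods' t-test, the slide row, the heat map's grouping and leaving out each array.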

Additional observations from a re-analysis of the deposited data

How the results depend on the processing

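Leaving out RG@M-γ-CD replicate 1 and PBS replicate 1 together was added after the data were seen. The count of members lower by the labels was within 1.5 times of 45 under all alternatives but the heat map's grouping, with 21. That tolerance covers smaller shifts. Leaving out RG@M-γ-CD replicate 1 reduced the count to 39, where 54.8% of all genes were lower. Leaving out PBS replicate 3 reduced it to 40, against 48.1% of all genes. The other single arrays, left out in turn, gave 43 to 45, against 40.2% to 61.2% of all genes. The count at an unadjusted p below 0.05 was 1 without the filter on dim probes (1.07% of all genes), 1 under the heat map's grouping (8.79%), 2 with the slide row as a block (1.86%), and 1 to 13 when single arrays were left out. The count without overlap between the groups was 1 with quantile normalization (2.33% of all genes), 1 with the authors' value table (2.32%), 1 under the heat map's grouping (18.4%), 12 without RG@M-γ-CD replicate 1 and PBS replicate 1 (30%), and 5 to 21 when single arrays were left out. The median was 0.011 over the members, −0.018 over the effectors and 0.41 over the GTPases under the heat map's grouping, and when single arrays were left out it ran from −0.61 (without PBS replicate 2) to −0.22 (without PBS replicate 3) over the members, from −0.59 to −0.15 over the effectors, from −0.99 to −0.34 over the GTPases and from −0.25 to −0.11 over the regulators. Under that grouping the sign turned for Parp14 (0.20), Irgm1 (0.016), Gbp6 (0.03), Igtp (0.43), Gbp4 (0.38), Gbp5 (0.51), Irf1 (0.10) and Gbp2 (0.62). Irf7 turned to 0.13 with the slide row as a block, and Gbp5 (0.36) and Gbp2 (0.016) turned without RG@M-γ-CD replicate 1 and PBS replicate 1. When single arrays were left out, Cmpk2 ran from −0.16 to 0.052, Gbp5 from −0.31 to 0.24 and Irf7 from −0.19 to 0.073, and without a change of sign Gbp2 ran from −1.10 to −0.20 and Ddx58 from −0.62 to −0.056. The cause of these shifts was not tested.

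The replicate numbers were not used as pairs in the main fit, because the methods compare the groups with an unpaired test. The deviations of same-numbered arrays correlated at −0.25, −0.23 and 0.14 across genes. Such correlations cannot show whether the mice were paired. With the replicate block 1 member was left at an unadjusted p below 0.05 (1.49% of all genes) and 45 were lower. The count of members past the adjusted threshold was 0 in limma under all alternatives and 0 in the methods' t-test, with the counts at an unadjusted p given above. Over all genes, 206 passed it when RG@M-γ-CD replicate 1 was left out, 5 passed with the heat map's grouping, and 0 passed under the others.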
